A study of Mus musculus with 16 samples.

Results

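The genes described are 8 members of the Bcl2 family that decide whether a cell starts apoptosis: the effectors Bax and Bak1, the BH3-only proteins Bbc3 (PUMA), Pmaip1 (NOXA) and Bcl2l11 (BIM), and the pro-survival proteins Bcl2, Bcl2l1 (BCL-XL) and Mcl1. They were chosen by symbol, as the probe sets that the platform annotation gives to each gene alone, in a table of log2 signals from embryonic mouse adrenal glands. Of the 8 symbols, 7 had a probe set of their own, with 24 probe sets in all out of 45101 in the table. Of these, 18 passed the filter on dim signals, out of 28478 in the table. At the gene level 6 of the members were tested, among 13642 tested genes. Bax was not analysed here, and Pmaip1 lay below the filter. The executioner caspases, which carry out the cell's breakdown downstream of this family, were represented by Casp6.

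Pooled glands were profiled on 16 Affymetrix arrays, 4 per group. The 4 groups were Dicer knockout (KO) glands at E15.5 and at E16.5, with the genotype Sf1-Cre/Dicer lox/lox, and WT glands at the same 2 stages. The WT animals were littermates without Cre, and since the matings used parents with floxed Dicer alleles they may carry such alleles themselves. All animals had a C57BL/6 background. Each array held glands of 1 genotype pooled within a litter, from 4 litters per stage. The Cre is driven by regulatory sequence of Sf1, which is active in the adrenal cortex. The comparison asks which transcripts differ when the cortex loses Dicer, which trims precursor hairpins to mature microRNAs.

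In mitochondrial apoptosis, BAX and BAK1 open the outer mitochondrial membrane and release cytochrome c. Pro-survival proteins hold them in check, and BH3-only proteins bind the pro-survival proteins or the effectors and so tip the cell towards death. Much of this control acts on protein stability, location and binding, which arrays of transcripts do not read. Bcl2l11 is also a well studied microRNA target: in mouse lymphocytes it is restrained by the miR-17 cluster.

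The mature guide strands of that cluster are shown because Dicer makes them and Bcl2l11 is a known target of theirs. The sequences are RefSeq's, read on the plus strand of the GRCm38.p6 build, chr14:115043684-115044496, and capitals mark the seed, bases 2 to 8 from the 5′ end. The arrays did not measure mature microRNAs, and no pairing with a Bcl2l11 transcript was examined.
mmu-miR-17-5p: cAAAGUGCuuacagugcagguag
mmu-miR-20a-5p: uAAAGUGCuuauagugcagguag
mmu-miR-18a-5p: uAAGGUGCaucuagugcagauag
mmu-miR-19a-3p: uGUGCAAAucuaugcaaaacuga
mmu-miR-19b-3p: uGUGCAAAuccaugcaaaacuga
mmu-miR-92a-3p: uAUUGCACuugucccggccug
The seeds fall into 4 groups: miR-17-5p and miR-20a-5p share one, miR-19a-3p and miR-19b-3p share another, and miR-18a-5p and miR-92a-3p each have their own.

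The deleted gene was looked at first. Dicer1 had log2 signals of 8.24, 8.36, 8.0 and 8.34 in KO glands at E15.5, against 8.50, 8.63, 8.64 and 8.58 in WT glands. At E16.5 they were 8.42, 8.30, 8.22 and 8.09 in KO glands and 8.45, 8.83, 8.60 and 8.59 in WT glands. All KO values lay below all WT values at both stages, with a difference of -0.35 ± 0.11 at E15.5 (SE, adjusted p = 0.0638) and -0.36 ± 0.11 at E16.5 (SE, adjusted p = 0.0414). The call at E16.5 was lost in an alternative that allowed for an offset between the genotypes (adjusted p = 0.263). That alternative allowed a difference in either direction, while the dimmest probe sets had a median KO minus WT difference of 0.073 at E16.5, opposite in sign to that of Dicer1. The sources used here do not say whether its probes fall inside the floxed exons, and the pools also hold cells in which Sf1 is not active. The second probe set, 1427941_at, differed by -0.35 and -0.42. Correlations between arrays of a group ran from 0.975 to 0.996, and WT E16.5 replicate 2 stood apart in its 3′ minus 5′ control signal, 3.15 against 0.19 to 1.62 on the other 15 arrays.

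Bcl2l11 rose in KO glands at E16.5 and was the member with the largest difference. Its brightest probe set, 1456005_a_at, read 10.80, 10.89, 11.22 and 11.14 in KO glands at E15.5, against 10.14, 10.59, 10.39 and 10.68 in WT glands. At E16.5 it read 11.69, 10.96, 11.11 and 11.44 in KO glands, against 10.34, 10.87, 10.50 and 10.36 in WT glands. All 4 KO pools lay above all 4 WT pools at each stage. The KO minus WT difference was 0.56 ± 0.17 at E15.5 (SE, 1.48-fold, adjusted p = 0.0659), which did not pass the threshold of 0.05, and 0.79 ± 0.17 at E16.5 (SE, 1.73-fold, adjusted p = 0.0073), which did. Since these are pools of whole glands, a change in the number of cells that express a gene and a change in the RNA per cell cannot be told apart.

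**Figure D1:**
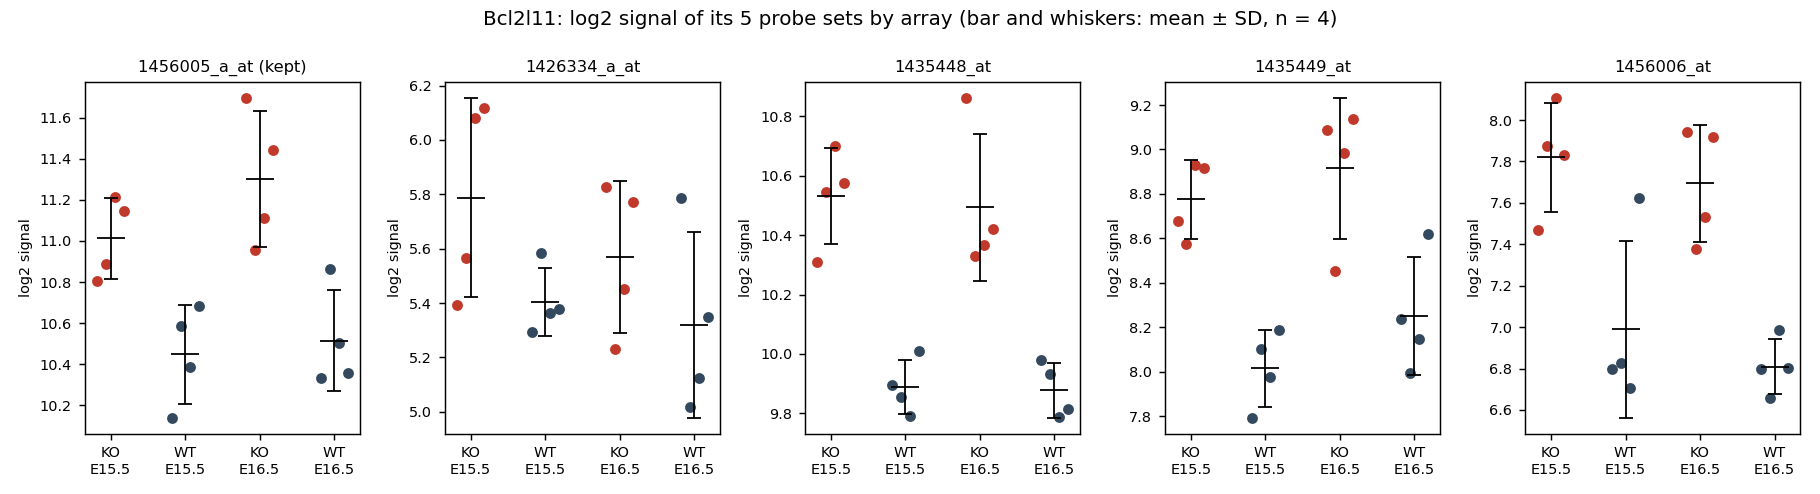
Log2 signal (vertical axis) of the 5 Bcl2l11 probe sets on each array, KO in red and WT in grey, with KO left of WT at E15.5 and then at E16.5. Black bars give the mean ± SD of 4 arrays; in the kept probe set the KO values lie above the WT values at both stages.

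All 5 Bcl2l11 probe sets were higher on average in KO glands, and 3 of 5 passed at E15.5 and 4 of 5 at E16.5 when all probe sets were tested together. In that fit 2.95% of all probe sets tested were higher in KO glands at E15.5 and 1.97% lower, against 4.77% higher and 2.92% lower at E16.5. Probe set 1435448_at read 10.31, 10.54, 10.70 and 10.57 in KO glands at E15.5 and 9.90, 9.86, 9.79 and 10.01 in WT glands. The E16.5 values were 10.86, 10.33, 10.36 and 10.42 in KO glands and 9.98, 9.93, 9.79 and 9.81 in WT glands. Its KO pools lay above its WT pools at both stages. Its difference was 0.64 ± 0.12 at E15.5 (SE, adjusted p = 0.00495) and 0.62 ± 0.12 at E16.5 (SE, adjusted p = 0.00469). The probe sets 1435449_at and 1456006_at differed by 0.76 and 0.83 at E15.5 and by 0.66 and 0.88 at E16.5, with adjusted p-values of 0.0122 and 0.0204 at E15.5 and 0.0204 and 0.0108 at E16.5. The dimmest of the 5, 1426334_a_at, did not pass at either stage, with differences of 0.38 and 0.25. The 5 probe sets read 1 gene from the same arrays and are not independent of each other.

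The threshold at E15.5 was close for Bcl2l11, and its call there depended on the fit. With the mean of its 5 probe sets in place of the brightest, the difference was 0.64 at both stages, and both passed (adjusted p = 0.00845 and 0.00543). The kept probe set passed at E15.5 in fits without KO E16.5 replicate 1 (adjusted p = 0.0492) or WT E16.5 replicate 2 (adjusted p = 0.0405), which enter that comparison through the shared estimate of the spread. It also passed there with no filter (adjusted p = 0.0471). It did not pass at E15.5 with the offset allowed for (adjusted p = 0.275), under quantile normalization (0.137) or 75th percentile centring (0.125), or in any of the 8 fits that left out an E15.5 array (highest adjusted p = 0.195). At E16.5 the call held in all 16 fits that left out 1 array, with adjusted p-values from 0.0028 to 0.0266, and it held when an offset between the genotypes was allowed for (adjusted p = 0.0249). The difference between the stages in the KO effect was 0.22 ± 0.24 (SE) and did not pass (adjusted p = 1), so the effect at E16.5 was not shown to differ from that at E15.5.

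Macrophage genes also differed between KO and WT glands. Of 12 macrophage markers, 7 rose at E15.5 and 12 at E16.5. Their mean log2 signal per array was 8.25 to 8.77 in KO glands and 7.61 to 7.90 in WT glands at E15.5, and 9.15 to 9.56 in KO glands and 7.94 to 8.46 in WT glands at E16.5. The groups did not overlap at either stage. Most adrenal cortex markers moved the other way, with 4 of 10 falling at E15.5 and 7 of 10 at E16.5. Nr5a1 differed by 0.56 and 0.19 and Star by 0.19 and 0.0026, higher in KO glands, and neither passed. The mean signals of the cortex list overlapped at E15.5, at 11.14 to 11.65 in KO glands against 11.56 to 12.18 in WT glands. At E16.5 they were 10.9 to 11.3 in KO glands and 11.6 to 12.1 in WT glands. Chromaffin markers gave 0 of 7 rising at E15.5 and 3 of 7 at E16.5. Their mean signals were also higher in KO pools, without overlap at either stage. They were 11.22 to 11.48 in KO glands and 10.70 to 11.19 in WT glands at E15.5. At E16.5 the KO range was 11.41 to 11.80 and the WT range 10.675 to 11.34. Capsule and mesenchyme markers overlapped at E15.5 and separated at E16.5, at 10.13 to 10.22 in KO glands and 9.87 to 10.06 in WT glands. Of all genes tested, 3.69% rose and 2.18% fell at E15.5, and 6.99% rose and 3.56% fell at E16.5. With the offset allowed for, 5 macrophage, 3 cortex and 0 chromaffin markers passed at E15.5. At E16.5 the same alternative kept 12, 6 and 1. The part of these cell types in the Bcl2l11 result was not tested. All 10 cortex and all 7 chromaffin markers examined were above the filter.

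The 3 tested genes whose log2 signal followed Bcl2l11 most closely over the 16 arrays were Spi1 (Pearson r = 0.92), Syk (r = 0.92) and Lmln (r = 0.91). Spi1 encodes PU.1, a transcription factor of myeloid and B cells, and Syk is a kinase of immune receptor signalling. The arrays share the 4 groups, so part of each r is the group difference. Within the groups r was 0.73, 0.69 and 0.70. The 3 genes were picked by r over these same 16 arrays, so the within-group values are not a separate check. These values are descriptions.

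The other pro-death members did not pass. Bak1, the effector analysed here, read 6.66, 7.15, 7.83 and 6.49 in KO glands at E15.5 and 6.83, 6.72, 7.07 and 7.28 in WT glands. At E16.5 the signals were 7.50, 7.27, 6.58 and 6.80 in KO glands and 6.80, 7.41, 6.76 and 6.39 in WT glands. Its pools overlapped at both stages, and its KO pools at E15.5 ran from 6.49 to 7.83. The differences were 0.06 ± 0.28 and 0.19 ± 0.28 (SE, adjusted p = 0.954 and 0.738). Bbc3, a BH3-only protein induced by p53 in many tissues, read 7.16, 6.98, 7.25 and 7.26 in KO glands at E15.5 and 7.03, 6.87, 6.99 and 7.15 in WT glands. Its E16.5 signals were 7.25, 7.29, 7.06 and 7.19 in KO glands and 7.25, 7.04, 7.07 and 7.18 in WT glands. The groups overlapped, with differences of 0.15 ± 0.10 and 0.06 ± 0.10 (SE, adjusted p = 0.441 and 0.765).

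Pmaip1, the third BH3-only member and like Bbc3 a p53 target, was dim, below the filter, and so not tested in the main fit. It read 4.59, 4.26, 4.37 and 4.23 in KO glands at E15.5, all above the 3.70, 3.93, 4.07 and 3.62 of WT glands. At E16.5 it read 4.21, 4.31, 5.03 and 4.76 in KO glands and 4.38, 4.11, 4.28 and 3.98 in WT glands, and the groups overlapped. The differences were 0.53 and 0.39, and dim signals are compressed by the summary the values come from. With no filter, over 18193 genes, neither passed (adjusted p = 0.0522 at E15.5 and 0.137 at E16.5), where 6.19% of genes were higher in KO glands at E15.5 and 8.62% at E16.5.

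**Figure D2:**
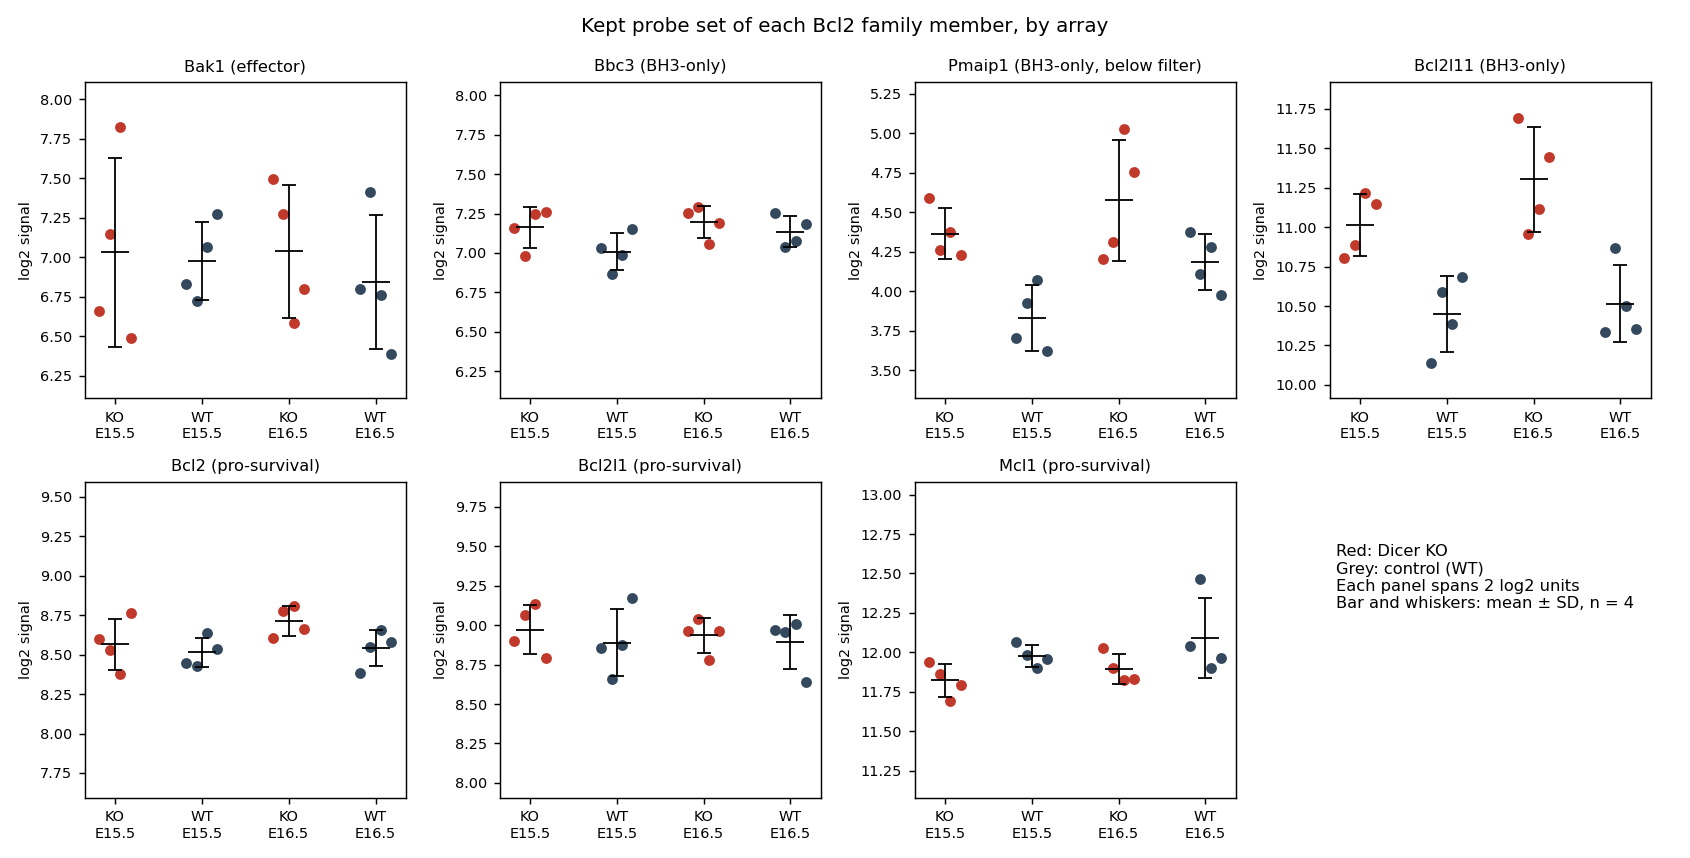
Log2 signal (vertical axis) of the kept probe set of each of the 7 members on each array, with KO in red left of WT in grey at E15.5 and at E16.5. Bars give the mean ± SD of 4 arrays and each panel spans 2 log2 units; the KO values separate from the WT values at both stages for Bcl2l11.

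Mcl1, a short-lived pro-survival protein, was lower in KO glands on all 6 of its probe sets at both stages, and none of the 6 passed. The differences ran from -0.36 to -0.14 at E15.5 and from -0.42 to -0.20 at E16.5. Its brightest probe set, 1437527_x_at, read 11.94, 11.86, 11.70 and 11.79 in KO glands at E15.5 and 12.07, 11.98, 11.90 and 11.96 in WT glands. The E16.5 values were 12.03, 11.90, 11.82 and 11.83 in KO glands and 12.04, 12.46, 11.90 and 11.96 in WT glands. The groups overlapped at both stages, with differences of -0.16 ± 0.11 and -0.20 ± 0.11 (SE, adjusted p = 0.526 and 0.317). Without WT E16.5 replicate 2, the highest pool and the array with the 3′ minus 5′ signal of 3.15, the difference at E16.5 was -0.0715. Probe sets with the suffix x can also bind related transcripts. With the mean of the 6 probe sets the difference was -0.20 at E15.5 (adjusted p = 0.187) and -0.27 at E16.5, where it passed (adjusted p = 0.0487). WT E16.5 replicate 2 was also the highest pool of that stage on 1456243_x_at (12.275) and 1456381_x_at (11.604). It was the lowest WT pool on 1416880_at (11.057) and 1416881_at (9.81). The mean without that array is not given here. The 6 probe sets read 1 gene from the same arrays and are not independent of each other. All 6 probe sets stayed lower in KO glands under quantile normalization and under centring on the 75th percentile.

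Bcl2, the founder of the family, had 5 probe sets that did not move as one. The brightest, 1457687_at, read 8.60, 8.53, 8.38 and 8.77 in KO glands at E15.5 and 8.45, 8.43, 8.64 and 8.54 in WT glands. At E16.5 the signals were 8.60, 8.78, 8.81 and 8.66 in KO glands and 8.39, 8.55, 8.66 and 8.58 in WT glands. The groups overlapped at each stage, with differences of 0.05 ± 0.10 and 0.17 ± 0.10 (SE, adjusted p = 0.849 and 0.322). The probe set 1437122_at passed at E16.5, with 6.33, 6.28, 6.12 and 6.06 in KO glands, all above 5.58, 5.93, 5.90 and 5.78 in WT glands (difference 0.40, adjusted p = 0.0401 in the fit of all probe sets). The dim probe set 1443837_x_at went the other way, by -0.39 and -0.57, and was below the filter. A call for Bcl2 thus depended on the probe set.

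Bcl2l1, the other pro-survival member, did not pass on its brightest probe set, 1420888_at. It read 8.90, 9.06, 9.13 and 8.79 in KO glands at E15.5 and 8.85, 8.66, 8.87 and 9.17 in WT glands. Its E16.5 signals were 8.97, 9.04, 8.78 and 8.96 in KO glands and 8.97, 8.95, 9.01 and 8.64 in WT glands. The differences were 0.08 ± 0.12 and 0.04 ± 0.12 (SE, adjusted p = 0.802 and 0.883), and the sign at E16.5 turned under quantile normalization and 75th percentile centring. Its dim probe set 1420887_a_at was higher in every KO pool at both stages, by 0.60 and 0.55, but lay below the filter and was not tested.

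**Figure D3:**
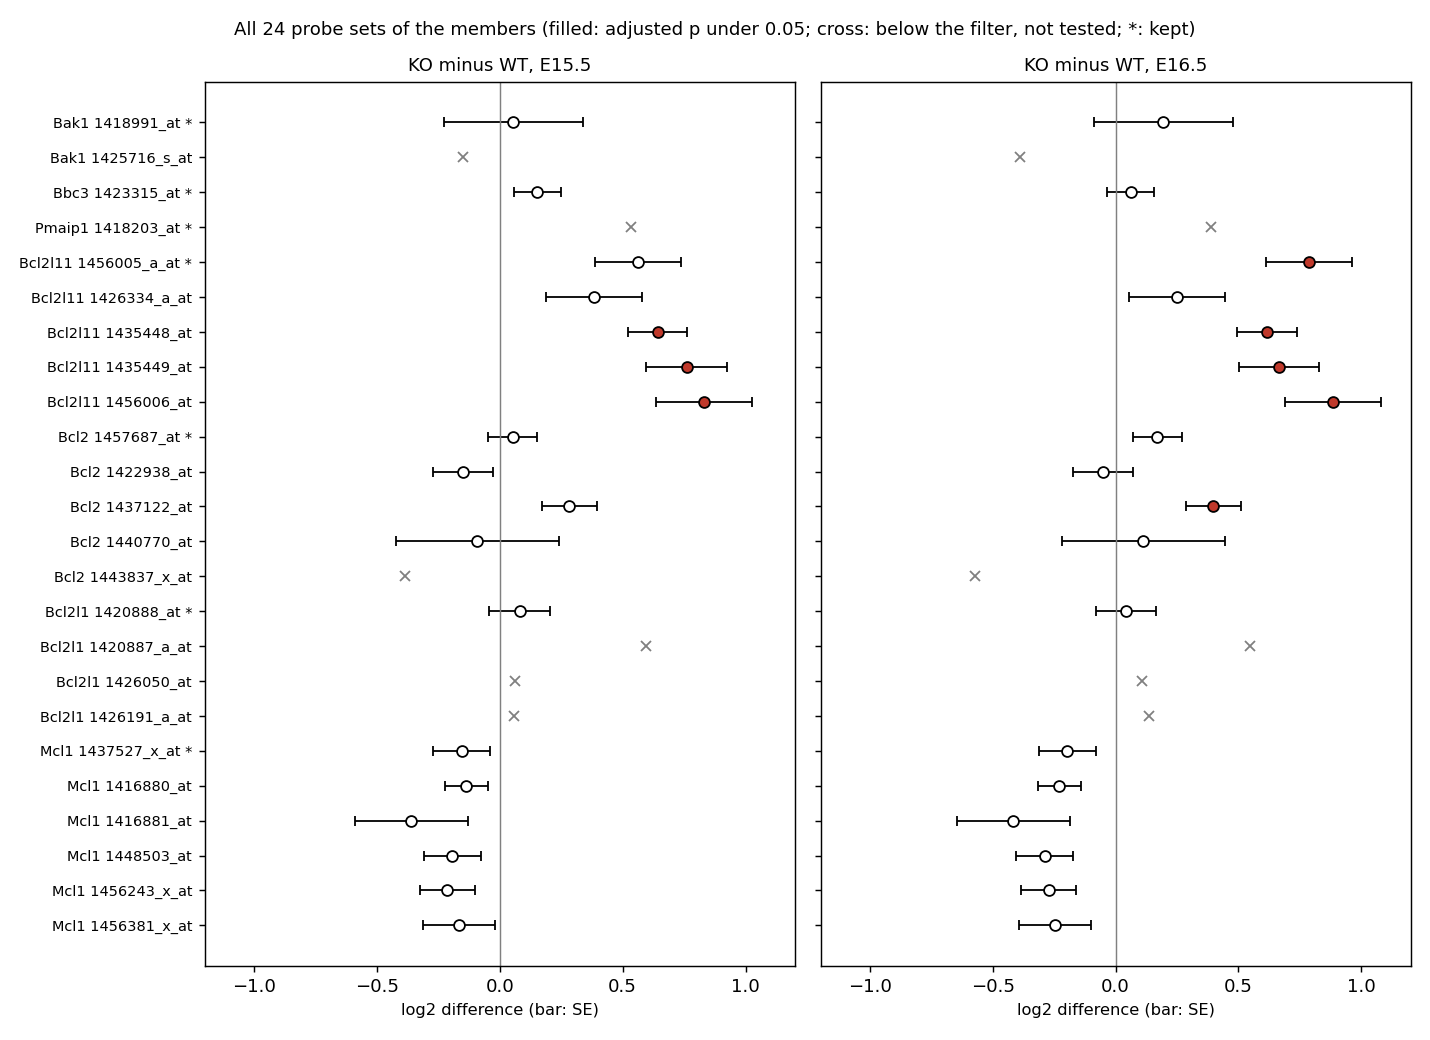
KO minus WT difference in log2 signal (horizontal axis, bars show the SE) of all 24 member probe sets, at E15.5 on the left and E16.5 on the right, in order of role. Filled points passed in the fit of all probe sets, open points did not, and crosses lay below the filter; the filled points are 3 Bcl2l11 probe sets at E15.5, and 4 of Bcl2l11 and 1 of Bcl2 at E16.5.

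Across the 6 tested members, 0 passed at E15.5 and 1, Bcl2l11, passed at E16.5. Over all genes tested 3.69% were higher and 2.18% lower in KO glands at E15.5, and 6.99% higher and 3.56% lower at E16.5. The members' median difference was 0.07 at E15.5 and 0.12 at E16.5, beside 0.07 and 0.08 over all tested genes. Allowing for an offset between the genotypes, 2.68% of genes passed at E15.5 and 4.57% at E16.5, and Bcl2l11 was still the 1 member called at E16.5. The share of higher against lower calls depended on the scaling. As deposited, 503 genes were higher and 297 lower at E15.5, and 954 and 485 at E16.5. Quantile normalization gave 373 and 350, and 606 and 570; 75th percentile centring gave 276 and 372, and 447 and 609.

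Pro-death members were set against pro-survival members by averaging, in each array, the log2 signals of Bak1, Bbc3 and Bcl2l11 and those of Bcl2, Bcl2l1 and Mcl1, after centring each gene on its mean over the 16 arrays. The pro-death minus pro-survival mean was 0.13 ± 0.28 in KO glands and -0.14 ± 0.11 in WT glands at E15.5 (SD, n = 4 each). At E16.5 it was 0.18 ± 0.21 in KO glands and -0.17 ± 0.09 in WT glands. The groups overlapped at both stages. KO pools ran from -0.093 to 0.54 and WT pools from -0.28 to -0.0064 at E15.5. At E16.5 KO pools ran from -0.041 to 0.46 and WT pools from -0.24 to -0.037. The overlap at E15.5 was between KO replicate 1 and WT replicate 4. At E16.5 it was between KO replicate 3 and WT replicate 2, the array with the 3′ minus 5′ signal of 3.15. Without Bcl2l11 the mean was 0.08 ± 0.34 in KO glands and -0.03 ± 0.10 in WT glands at E15.5, and 0.04 ± 0.22 in KO glands and -0.08 ± 0.10 in WT glands at E16.5. The pro-survival mean alone lay between -0.03 and 0.03 in all 4 groups. No test was made of these averages.

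**Figure D4:**
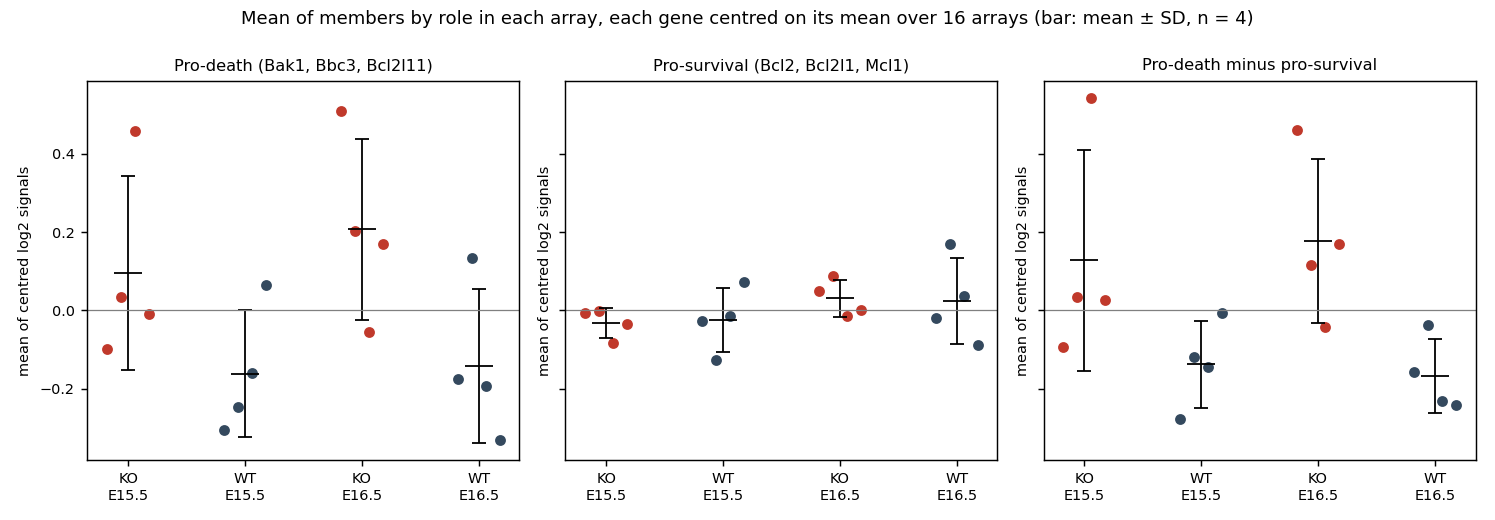
Mean centred log2 signal (vertical axis) of the pro-death members, of the pro-survival members and their difference, by array, KO in red left of WT in grey at each stage. Bars show the mean ± SD of 4 arrays. The difference overlaps between KO and WT pools at both stages, at E16.5 between KO replicate 3 and WT replicate 2.

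Neither stage nor genotype by stage moved the members beyond the threshold. None of the 6 passed for E16.5 against E15.5 in KO glands, where 0.902% of all genes passed, nor in WT glands, where 0.0953% did. For the difference of the KO effect between stages 0% of genes passed by limma, with 258 of 13642 at an unadjusted p under 0.05 and 6 when arrays were weighted by quality.

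Among 11 tested relatives of the family, 0 passed at E15.5 and 1, lower in KO glands, at E16.5. Beside 2.18% and 3.56% of all genes lower, such a count is not a result about the relatives. Bnip3, a mitochondrial protein of mitophagy, fell by 0.58 ± 0.17 on the log2 scale at E16.5 (SE, adjusted p = 0.0368), and differed by -0.49 at E15.5 (adjusted p = 0.105). Its call at E16.5 was kept in 1 of the 8 fits that left out an array of that stage. Bid, which links death receptors to mitochondria, differed by -0.43 at E16.5 (adjusted p = 0.125), and Hrk, a BH3-only protein known from neurons, by 0.37 and 0.30. Bad differed by -0.25 at E15.5, and Bok, a Bax-like protein, by -0.21 and -0.09. Without WT E16.5 replicate 2, Bid passed at E16.5 (difference -0.56, adjusted p = 0.0363). Bcl2l2, a pro-survival protein, differed by -0.15 and -0.03, and Bmf, a BH3-only protein, by -0.23 and 0.09. Bik, also BH3-only, differed by 0.21 and 0.23. Bcl2l12, Bcl2l13 and Bcl2l14 differed by 0.20, 0.09 and 0.07 at E15.5 and by 0.11, 0.04 and 0.14 at E16.5. The 4 Bcl2a1 genes share probe sets, and 1 such set, 1419004_s_at, differed by 0.14 at E15.5 and 0.85 at E16.5 (adjusted p = 0.0428 at E16.5), with overlapping groups.

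Caspases, the proteases that carry the signal on, gave 0 of 8 called at E15.5 and 3 of 8 higher at E16.5, beside 3.69% and 6.99% of all genes higher. Casp8, the initiator of the death receptor branch, read 9.64, 9.38, 9.60 and 9.84 in KO glands at E16.5 and 9.07, 9.0, 9.27 and 9.15 in WT glands (difference 0.49 ± 0.15 SE, adjusted p = 0.0455). Casp1, which matures interleukin 1 beta, read 5.29, 5.93, 5.70 and 5.82 in KO glands at E16.5 and 5.18, 5.29, 4.81 and 4.80 in WT glands, with a difference of 0.66 ± 0.16 (SE, adjusted p = 0.0156). Casp1 was above the filter on 7 of 8 KO arrays and 2 of 8 WT arrays, so its WT level is near or below the filter and it entered the test through the KO arrays. With no filter its adjusted p at E16.5 was 0.0127. Casp4, the mouse caspase 11 that responds to bacterial lipid, read 6.18, 6.37, 6.09 and 6.37 in KO glands at E16.5 and 6.08, 5.85, 5.84 and 5.55 in WT glands. Its difference was 0.42 ± 0.13 (SE, adjusted p = 0.0416). Every KO pool lay above every WT pool for all 3 at E16.5, narrowly for Casp1 and Casp4. The closest pools were 5.293 in KO glands and 5.288 in WT glands for Casp1, and 6.091 and 6.077 for Casp4. These 3 genes were picked because they were called, and the share of all genes with separate pools is not given here. The separation is thus a description and not further support. The calls of Casp8 and Casp4 were lost under quantile normalization and 75th percentile centring, and remained in 1 and 2 of the 8 fits that left out an array of that stage. Without WT E16.5 replicate 2 their adjusted p-values were 0.0815 and 0.052. The call of Casp1 was lost without WT E16.5 replicate 3 (adjusted p = 0.0527). Allowing for the offset between genotypes, none of the 3 passed. The macrophage markers above rose in the same pools, and their part in these calls was not tested. Casp6, the executioner analysed here, differed by 0.39 ± 0.19 and 0.36 ± 0.19 (SE), with overlapping pools, and did not pass (adjusted p = 0.275 and 0.259). Casp2 differed by 0.22 and 0.25, and Casp9, the initiator that APAF1 activates, by 0.08 and 0.23. Casp12 differed by 0.21 and 0.46. Without WT E16.5 replicate 2, the E16.5 differences were 0.14 for Casp6, 0.11 for Casp2 and 0.30 for Casp12. Casp14, a caspase of skin differentiation, was lower in KO glands, by -0.38 at E15.5, where all KO pools lay below all WT pools, and by -0.31 at E16.5, and did not pass (adjusted p = 0.0866 and 0.133).

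Of 6 genes of the apoptosome and mitochondrial release, 1 fell at both stages, beside 2.18% and 3.56% of all genes lower. Aifm1, a mitochondrial flavoprotein of respiratory chain assembly that can also leave the organelle during cell death, read 11.26, 11.17, 11.07 and 11.17 in KO glands at E15.5 and 11.69, 11.73, 11.42 and 11.72 in WT glands. At E16.5 it read 11.12, 10.97, 11.11 and 11.18 in KO glands and 11.60, 11.48, 11.75 and 11.96 in WT glands. All KO pools lay below all WT pools, with differences of -0.47 ± 0.11 and -0.60 ± 0.11 (SE, adjusted p = 0.0136 and 0.00165). The call held in all 16 fits that left out an array at both stages. At E15.5 it was lost when an offset in either direction was allowed for (adjusted p = 0.124). Apaf1 differed by 0.17 and 0.42 (adjusted p = 0.605 and 0.0778).

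Of 8 tested inhibitor of apoptosis genes, 1 fell at both stages and 1 rose at E16.5. Of all genes tested, 2.18% were lower at E15.5 and 3.56% at E16.5, and 6.99% were higher at E16.5. Naip5, an inflammasome sensor of bacterial flagellin, read 5.99, 5.89, 5.38 and 6.22 in KO glands at E15.5 and 7.33, 7.19, 6.52 and 7.15 in WT glands. The E16.5 values were 6.77, 6.54, 6.73 and 6.38 in KO glands and 7.64, 8.11, 7.65 and 7.79 in WT glands. All KO pools lay below all WT pools, with differences of -1.18 ± 0.19 and -1.19 ± 0.19 (SE, adjusted p = 9.94e-04 and 6.06e-04). Naip2, a close relative, rose by 0.56 ± 0.13 at E16.5 (SE, adjusted p = 0.0109), a call lost with the offset allowed for (adjusted p = 0.056). The Naip genes are near copies of each other, so which copy each probe set read is uncertain. Birc5 (survivin), a mitotic protein, differed by 0.37 and 0.74 (adjusted p = 0.476 and 0.0691), and at E16.5 by 0.44 without WT E16.5 replicate 2. Birc2, a ubiquitin ligase of TNF receptor signalling, differed by -0.37 at E15.5, where all KO pools lay below all WT pools, and by -0.30 at E16.5 (adjusted p = 0.0802 and 0.121). Without WT E16.5 replicate 2 it passed at E16.5 (difference -0.39, adjusted p = 0.0344).

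In the death receptor branch 5 of 6 tested genes did not pass at either stage, and the other was Tnfsf10. Of all genes tested, 3.69% were higher at E15.5 and 6.99% at E16.5. Tnfsf10 (TRAIL), a ligand of death receptors, read 5.36, 5.34, 5.43 and 5.50 in KO glands at E15.5 and 4.55, 4.51, 4.42 and 4.32 in WT glands. At E16.5 the signals were 5.67, 5.56, 5.98 and 5.78 in KO glands and 4.56, 4.38, 4.70 and 4.98 in WT glands. All KO pools lay above all WT pools, with differences of 0.96 ± 0.12 and 1.10 ± 0.12 (SE). The gene was above the filter on 8 of 8 KO arrays and 0 of 8 WT arrays, so it entered the test through the KO arrays alone, and its WT signals are too dim to fix the size of the difference. With no filter on genes its adjusted p was 1.16e-04 at E15.5 and 1.69e-05 at E16.5. Fas, a death receptor, differed by 0.08 and 0.25 and did not pass. Of 4 substrates of DNA breakdown and 2 regulators of p53 none passed. Mdm2 differed by 0.26 at E15.5 and 0.27 at E16.5, and Trp53 itself was not analysed here.

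**Figure D5:**
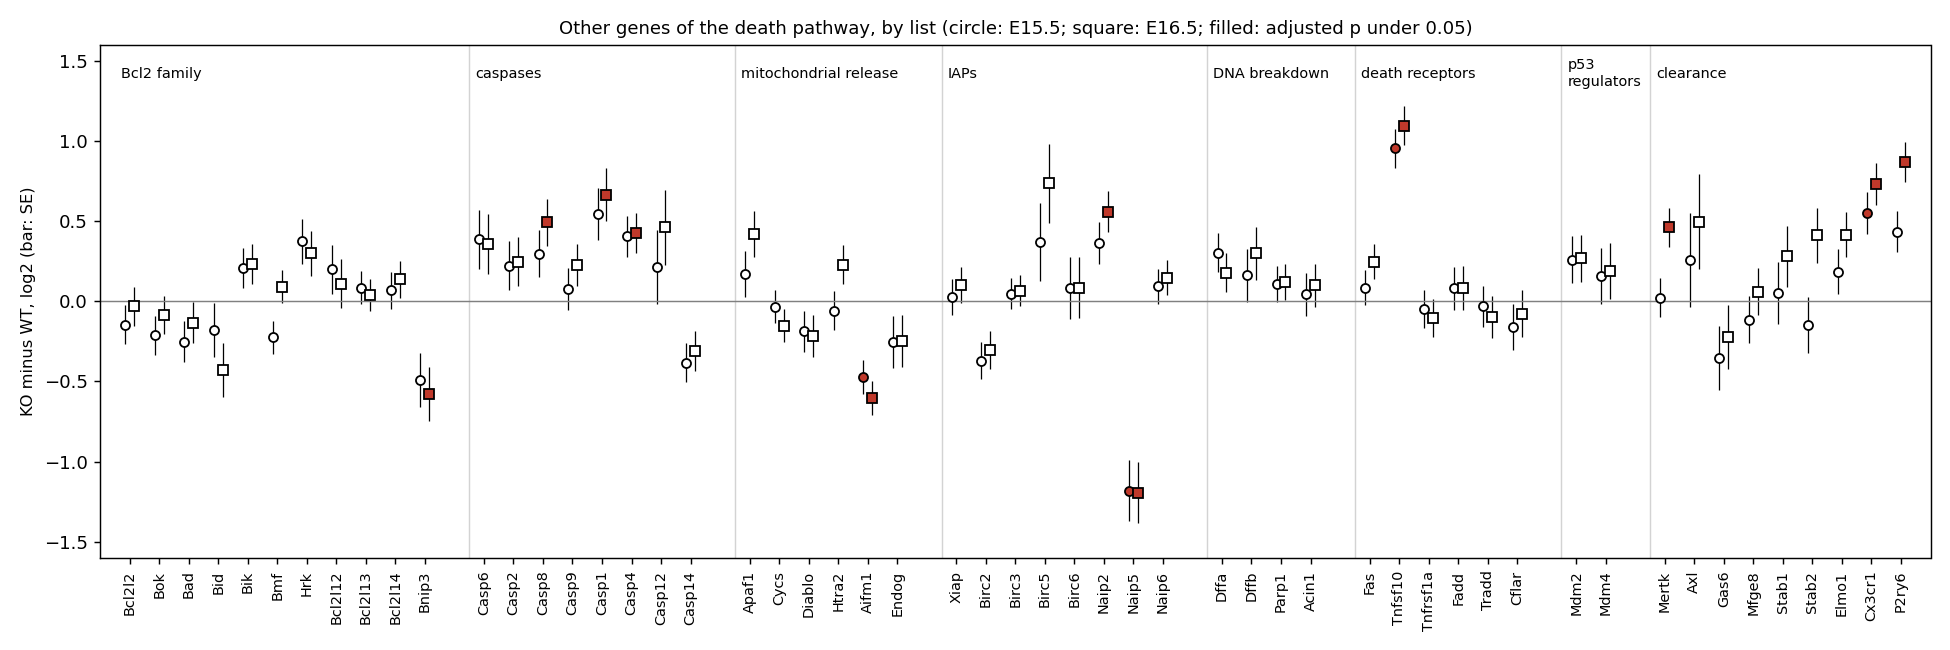
KO minus WT difference in log2 signal (vertical axis, bars show the SE) of the other tested death pathway genes, grouped by list, with circles for E15.5 and squares for E16.5. Filled symbols passed at an adjusted p under 0.05; Naip5 stands at -1.18 and -1.19, and Tnfsf10, at 0.96 and 1.10, passed the filter through its KO arrays alone.

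Genes of dead cell clearance gave 1 of 9 rising at E15.5 and 3 of 9 at E16.5, beside 3.69% and 6.99% of all genes higher. With the offset allowed for, 0 of 9 passed at E15.5 and 2 of 9 at E16.5. Cx3cr1, a chemokine receptor of macrophages, rose by 0.55 ± 0.13 and 0.73 ± 0.13 (SE, adjusted p = 0.0173 and 0.00169), and its call at E15.5 was lost with the offset allowed for (adjusted p = 0.108) and remained in 3 of the 8 fits that left out an array of that stage. P2ry6, a receptor for nucleotides released by dying cells, read 7.89, 7.80, 8.01 and 8.11 in KO glands at E16.5 and 7.21, 7.05, 7.13 and 6.95 in WT glands, with a difference of 0.87 ± 0.13 (SE, adjusted p = 2.76e-04). Mertk, a receptor of engulfment, differed by 0.46 ± 0.12 at E16.5 (SE, adjusted p = 0.0225), where KO pools lay above all WT pools, and its call was lost under quantile normalization and 75th percentile centring and with the offset allowed for. The 12 of 12 macrophage markers that rose at E16.5 stand beside this list, and their part in it was not tested.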

How the data were processed

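Transcripts of pooled adrenal glands were measured on 16 Affymetrix Mouse430_2 arrays, 4 per group. The authors deposited a table of log2 signals. RMA and limma are named in the submitters' processing notes. The sources used here give no versions and do not say whether all arrays were normalized together. RMA compresses dim signals, which understates the change of dim transcripts.

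No further normalization was applied. Names came from the platform annotation, which gave 1 symbol to 34945 probe sets, several to 932 and none to 9160, and symbols were updated through the gene identifier for 34741. Each of 18193 genes was represented by its brightest probe set on average (the kept one), and tested if above the 40th percentile of an array (5.11 to 5.21 on the log2 scale) on at least 4 arrays. A mean per group was fitted to all 16 arrays with limma 3.58.1 (eBayes, two-sided) in R 4.3.3 with version 1.17.8 of data.table, and p-values were adjusted by Benjamini-Hochberg over all genes tested. Adjusted p-values in the text come from this fit unless another is named, and a gene passed under 0.05. A second fit ran over all 28478 probe sets above the filter. The offset alternative (limma treat) allowed a difference of 0.15 at E15.5 and 0.14 at E16.5, the median absolute difference of the dimmest 9007 probe sets. It allowed this in either direction and so is a test against a smallest size of change. The signed median KO minus WT difference of those probe sets was 0.10 at E15.5 and 0.073 at E16.5, higher in KO glands. The median SE of a KO effect was 0.139, which the number of arrays limits.

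Named genes were all members with every probe set, Dicer1, each gene of the pathway lists called at either stage, other tested Bcl2 relatives and caspases, and otherwise up to 2 genes per list with the smallest p. The members and lists were chosen with earlier results of these data known. Tested on simulated data over 13642 genes, the fit recovered 39% of genes changed by 0.5 and 93% of genes changed by 1 (log2) at E15.5. At E16.5 it recovered 44% and 93%, and false calls numbered 7 at E15.5 and 9 at E16.5. The simulation changed 200 genes and drew noise independently for each gene, with no offset between the genotypes. Its rates need not hold for these data. The WT pools share a stage, and may share litters, with their KO pools, and the labels do not tie replicate numbers to litters. Same-numbered KO and WT pools correlated at -0.39 to 0.39 at E15.5 and -0.20 to 0.45 at E16.5. Correlations of so few pools cannot show that the pools are unpaired. Numbers were not used as pairs in the main fit, which treats the pools as independent and so ignores shared litters. A fit with the numbers as a block is among the alternatives. Alternatives were the normalization, the filter, the probe set rule, the groups in the fit, array weights, the replicate block and leaving out each array. Some genes of the lists are not reported here.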

Additional observations from a re-analysis of the deposited data

Results flagged for a closer look

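Of 104 groups of 4 pools examined over the members' and Dicer1's probe sets, 6 held a pool far from the other 3; about 1 in 20 such groups would by chance. In Bak1 1425716_s_at, WT E15.5 replicate 4 read 4.568 and the others 4.29 to 4.32. In Bcl2l1 1420888_at, WT E16.5 replicate 4 read 8.64 and the others 8.95 to 9.01. In Bcl2l1 1426050_at, WT E16.5 replicate 3 read 3.955 and the others 3.68 to 3.71. In Bcl2l11 1456006_at, WT E15.5 replicate 4 read 7.624 and the others 6.71 to 6.83. In Mcl1 1448503_at, KO E16.5 replicate 2 read 11.41 and the others 11.82 to 11.90. In Mcl1 1456243_x_at, KO E16.5 replicate 1 read 11.79 and the others 11.56 to 11.59. The Bak1 set and Bcl2l1 1426050_at lie below the filter.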

How the results depend on the processing

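Of 312 alternative values for the members' differences, 290 kept direction and side of the threshold. Of the rest, 7 passed where the main value did not, and 15 turned sign without passing. The cause of each change was not tested. Bak1 at E15.5 turned to -0.0207 with 75th percentile centring and -0.0461 with the mean of probe sets, and at E16.5 to -0.0964 with the mean. Bbc3 at E16.5 turned to -0.0144 under quantile normalization and -0.0272 under 75th percentile centring. Bcl2 at E15.5 turned to -0.0273 (quantile), -0.0243 (75th percentile) and -0.059 (mean of probe sets). Bcl2l1 at E16.5 turned to -0.0479 (quantile), -0.046 (75th percentile) and -0.105 (array weights). Outside the members, Mertk at E15.5 turned to -0.0384 (quantile) and -0.0546 (75th percentile). Leaving out 1 array gave -0.209 to 0.236 for Bak1 at E15.5, -0.014 to 0.116 for Bcl2 at E15.5, -0.0418 to 0.0947 for Bcl2l1 at E16.5 and -0.0202 to 0.0754 for Mertk at E15.5.

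The number of members called at E15.5 was 1 with no filter, the mean of probe sets, only the groups compared or array weights, and 0 to 1 with an array left out (1 without KO E16.5 replicate 1 or WT E16.5 replicate 2); at E16.5 it was 2 with the mean of probe sets, where Mcl1 passed. The number of Bcl2l11 probe sets called, an alternative chosen after seeing the data, was 2 to 3 at E15.5 and 3 to 4 at E16.5 with an array left out, and 2 and 3 with the offset allowed for.

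Genes called at E15.5 numbered 800 in the main fit, 366 with the offset allowed for, 1688 with no filter, 414 with a stricter filter, 1401 over probe sets and 1350 with array weights. At E16.5 they numbered 1439, with 624, 2355, 899, 2189 and 4938 under the same settings, 817 with only the groups compared, and 935 (without KO E16.5 replicate 3) to 1705 with an array left out. For the difference between stages array weights gave 6. E16.5 against E15.5 in KO glands gave 123, 73 with only the groups compared, 435 with array weights and 53 (without KO E16.5 replicate 3) to 175 with an array left out. In WT glands it gave 13, 8 with a stricter filter, 2 over probe sets, 0 with only the groups compared, 1102 with array weights and 0 (without WT E15.5 replicate 1, 2 or 3) to 19 with an array left out.

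With the replicate block 710 genes passed at E15.5 and 1263 at E16.5, and at E16.5 Casp4 (adjusted p = 0.0761), Casp8 (0.0515), Dicer1 (0.0788) and Mertk (0.0597) did not pass, while Bcl2l11 did (0.027). Arrays of 4 pools per group limit these results, and dim probe sets carry little.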
